A study of Mus musculus with 20 samples.

Results

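The 30 genes described here encode enzymes of cholesterol and fatty acid synthesis and the proteins that control their transcription. They were taken by name from these pathways, with earlier results of these data known. Each matched 1 of the 53379 gene identifiers measured, and all 30 passed the filter on low counts, among 15835 genes tested. By role they comprised 7 genes of the mevalonate steps, 11 of the squalene and sterol steps, 6 regulators and sterol carriers, and 6 genes of fatty acid synthesis.

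RNA-seq was carried out on mouse Lin- haematopoietic progenitor cells, which are blood progenitors depleted of cells with mature lineage markers, infected with a retroviral vector and cultured for 3 days. The 20 libraries formed 5 groups of 4. Enhancer-null cells came from mice without the enhancer 77 kb upstream of Gata2, the gene of a zinc finger transcription factor of stem and progenitor cells. In 3 groups enhancer-null cells were given a vector for GATA2, for the GATA2 variant R307W or for the variant T354M. The fourth was enhancer-null cells with a control vector (enhancer-null controls), and the fifth was wild-type cells with a control vector. The vector was named pMSCV-Gata2 for GATA2 and an MSCV vector for the variants. Fetal liver, age E14.5, strain C57BL/6J and a medium with serum, IL3-CM and SCF-CM were recorded for the GATA2, enhancer-null control and wild-type libraries. The variant records give the cell type, vector and culture time but none of these other details, so any difference in handling cannot be told apart from a comparison of a variant with another group. The labels do not say whether the 4 replicates of a group came from separate animals or cultures, so p-values measure the spread between these libraries, which may be technical.

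Library totals ran from 22330475 to 33245876 expected counts. Gata2 itself was at 42.9 to 132 CPM in GATA2 libraries, 39.5 to 89.5 CPM in R307W libraries, 33.6 to 73.8 CPM in T354M libraries, 4.72 to 7.67 CPM in enhancer-null controls and 31.5 to 53.0 CPM in wild-type libraries. Gata2 counts cannot separate the vector's coding sequence from the gene. CPM here are counts scaled to library size after TMM normalization, which corrects for differences in library composition. Statements that libraries lie above, below or apart from each other are on CPM unless TPM is named. Some of these separations did not hold on TPM.

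Cells make cholesterol from acetyl-CoA through mevalonate, squalene and lanosterol, and make fatty acids from the same acetyl-CoA through malonyl-CoA. The transcription factors SREBP1 and SREBP2, products of Srebf1 and Srebf2, are made as membrane proteins of the endoplasmic reticulum. When sterols are scarce the escort protein SCAP carries them to the Golgi for cleavage, and the cleaved factor enters the nucleus and raises transcription of most genes of both pathways. When sterols are plentiful the INSIG proteins hold SCAP back, so that enzyme transcripts commonly move as a group in dividing cells and liver.

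Promoter windows, 250 bases before to 50 bases after a RefSeq start on build GRCm38.p6, were held for 24 of the 30 genes, with 32 windows in all. There was no window for Fdps, Fdft1, Sqle, Stard4, Scd1 or Scd2. The windows of Lss, Cyp51 and Nsdhl are shown because these were the genes with a window and the largest called differences in enhancer loss or with a vector. Hmgcs1 is shown because its window alone matched the fixed letters TCACNCCAC, a core of the sterol regulatory element that SREBPs bind. Looser forms of that element were not searched, so windows without this match may still hold an SREBP site. Capitals mark the CCAAT box, which reads ATTGG when it lies on the other strand, and in Hmgcs1 also the sterol element.

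Lss, chr10:76531355-76531654, plus strand: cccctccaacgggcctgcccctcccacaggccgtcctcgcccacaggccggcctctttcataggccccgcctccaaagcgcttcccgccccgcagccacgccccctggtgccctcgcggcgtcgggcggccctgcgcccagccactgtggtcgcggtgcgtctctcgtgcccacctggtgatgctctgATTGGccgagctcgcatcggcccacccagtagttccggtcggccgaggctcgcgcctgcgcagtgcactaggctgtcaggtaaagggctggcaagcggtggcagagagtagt
Cyp51, chr5:4104648-4104947, minus strand: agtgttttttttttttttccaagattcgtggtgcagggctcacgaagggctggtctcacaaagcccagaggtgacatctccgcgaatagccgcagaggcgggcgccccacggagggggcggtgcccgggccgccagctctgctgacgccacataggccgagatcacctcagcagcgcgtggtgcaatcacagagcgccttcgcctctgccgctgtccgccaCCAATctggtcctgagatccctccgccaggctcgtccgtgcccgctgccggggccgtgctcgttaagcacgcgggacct
Nsdhl, chrX:72918271-72918570, plus strand: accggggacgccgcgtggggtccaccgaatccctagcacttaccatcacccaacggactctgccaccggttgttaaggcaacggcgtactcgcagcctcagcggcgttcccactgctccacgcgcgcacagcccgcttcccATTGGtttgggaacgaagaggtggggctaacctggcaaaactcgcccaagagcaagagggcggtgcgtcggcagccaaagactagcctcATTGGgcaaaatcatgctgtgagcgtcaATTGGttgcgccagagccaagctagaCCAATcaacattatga
Hmgcs1, chr13:119690101-119690400, plus strand: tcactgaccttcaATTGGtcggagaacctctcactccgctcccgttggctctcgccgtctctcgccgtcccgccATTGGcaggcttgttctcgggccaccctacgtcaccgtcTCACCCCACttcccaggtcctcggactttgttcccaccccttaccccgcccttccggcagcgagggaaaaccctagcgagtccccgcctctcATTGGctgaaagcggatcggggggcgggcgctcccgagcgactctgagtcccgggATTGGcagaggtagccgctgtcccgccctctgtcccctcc

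Both strands of each window were searched for fixed letters, with matches counted whether or not they overlapped another motif. The CCAAT box, the site of the factor NF-Y, was found in 21 of the 32 windows, or 65.6%, against 37.4% of all 32851 promoter windows of that table. Of its 43 matches, 31 began 1 to 150 bases upstream of the start. The GC box GGGCGG was in 24 windows, 75% against 35.7% of all windows. The E-box CACGTG was in 6 windows (18.8% against 7.15%), of Hsd17b7, Sc5d, Dhcr7, Insig1 and Scap, or 5 of 24 genes. The windows of Scap, chr9:110333038-110333337 and chr9:110333106-110333405, overlap. Their E-box is the same site counted in each, and they also share a GC box. The sterol element core TCACNCCAC was in 1 window (3.12% against 1.24%), that of Hmgcs1, where it began 137 bases upstream. GATA motifs were in windows of Insig2 and of no other member: AGATAA in 1 window (3.12% against 11.2%) and TGATAA in 1 window (3.12% against 9.05%). Windows of 300 bases do not reach distal sites, and a match of letters is a description.

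**Figure D1:**
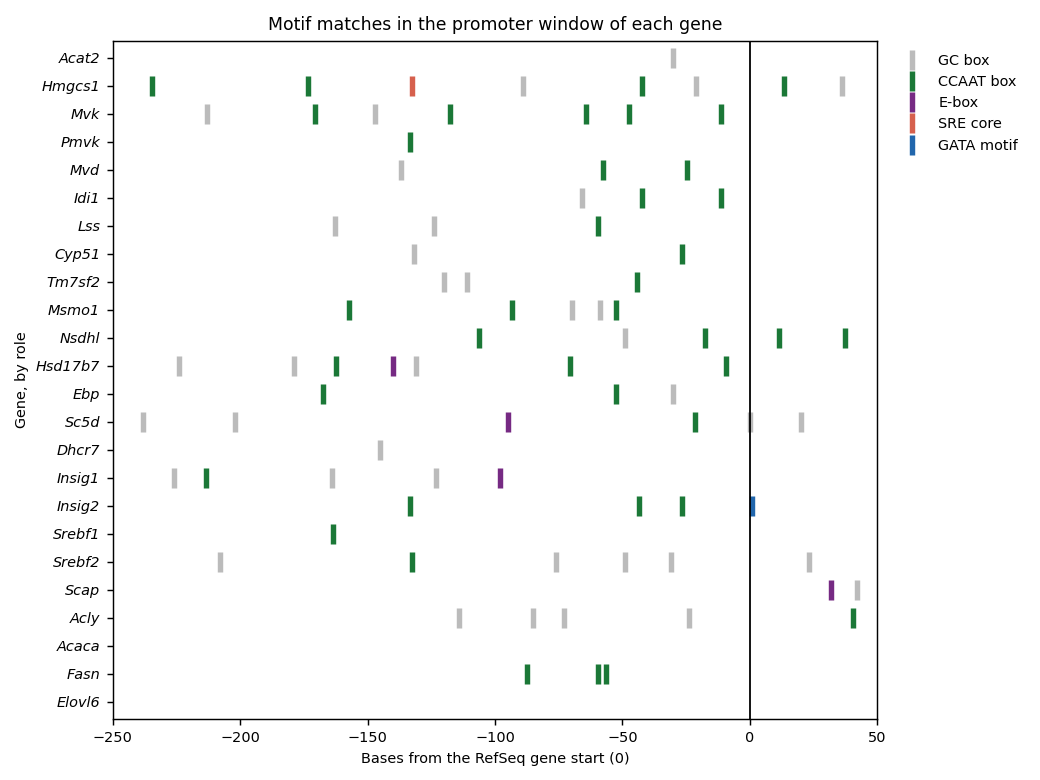
Motif matches in the first listed promoter window of each of 24 members, plotted by distance in bases from the RefSeq start (x axis), 1 row per gene and 1 colour per motif. CCAAT boxes lie in most rows, and the 1 sterol element match (SRE core) lies in the row of Hmgcs1, with its first base 137 bases upstream.

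Transcript levels per length differed widely among the members. Fdps had the highest level, at 92.2 ± 9.42 TPM in enhancer-null controls and 122 ± 21.2 TPM in wild-type cells (SD, n = 4 each; TPM is a level corrected for transcript length). Insig2, at 3.38 ± 0.473 TPM in enhancer-null controls and 3.16 ± 0.742 TPM in wild-type cells, and Hsd17b7, at 3.73 ± 0.996 TPM in enhancer-null controls and 4.30 ± 0.801 TPM in wild-type cells, were near the low end. Scd1 was the lowest member in one group and mid-range in the other, with 0.120 ± 0.0271 TPM in enhancer-null controls and 10.5 ± 4.78 TPM in wild-type cells. Summed over the 11 squalene and sterol genes, levels ran from 207.9 to 265.3 TPM in GATA2 libraries, 162.4 to 224.7 TPM in R307W libraries, 177.3 to 211.8 TPM in T354M libraries, 156.0 to 160.7 TPM in enhancer-null controls and 151.8 to 183.8 TPM in wild-type libraries. The summed level of the GATA2 libraries lay above that of every control and wild-type library, and the enhancer-null and wild-type ranges overlapped.

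**Figure D2:**
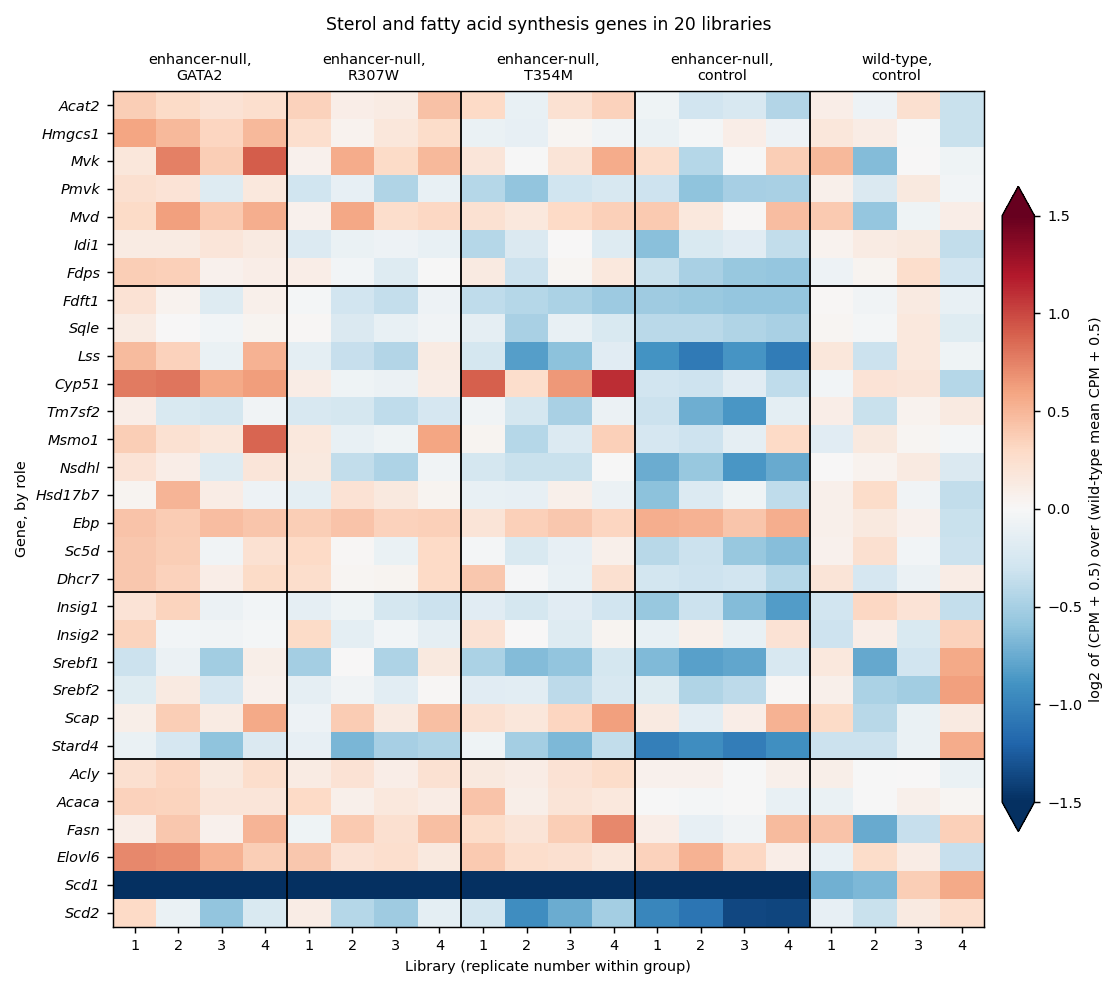
Level of each of the 30 members (rows, by role) in each of the 20 libraries (columns, by group), as the log2 ratio of its CPM to the gene's wild-type mean, each with 0.5 added, with colours capped at 1.5 in either direction. Lss, Nsdhl, Stard4 and Scd2 are darkest blue in the enhancer-null controls, Cyp51 is red in GATA2 and T354M libraries, Scd1 is below the colour range in all 16 enhancer-null libraries, and Srebf1, Srebf2 and Fasn vary within the wild-type group.

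The first question was how enhancer loss changed these genes. Enhancer-null controls had lower transcript levels of 15 of the 30 members than wild-type cells and higher levels of 2, by edgeR's quasi-likelihood test with Benjamini-Hochberg adjustment over all genes tested at 0.05. Among all genes tested 43.3% changed in this comparison, 23.2% lower and 20.1% higher. The median log2 difference was -0.33 over the members and -0.05 over all genes. In 12 members the libraries of the 2 groups did not overlap, 11 of them lower and 1 higher, where 38.8% of all genes did not overlap. By role, 3 of 7 mevalonate genes, 7 of 11 squalene and sterol genes, 3 of 6 regulators and carriers and 2 of 6 fatty acid genes fell, while Ebp and Elovl6 rose. Of the 17 calls, 12 held with any 1 library left out, and those of Idi1, Tm7sf2, Dhcr7, Srebf1 and Elovl6 did not. Without wild-type replicates 2 and 3 together, 13 of the 17 were called.

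Each vector was then set against the control vector in enhancer-null cells, which asks what GATA2 or a variant did to the same genes. GATA2 raised 19 of the 30 members and lowered 0, where 19.2% of all genes changed, 11% higher and 8.23% lower. R307W raised 10 and lowered 0 (17.5% of all genes changed, 10% higher and 7.48% lower), and T354M raised 10 and lowered 0 (17.4% of all genes changed, 9.26% higher and 8.11% lower). At an unadjusted p under 0.05, 0 members were lower with GATA2, 0 with R307W and 1 (Ebp) with T354M, and DESeq2's Wald test called 0 lower with each vector. Median log2 differences over the members were 0.51 with GATA2, 0.30 with R307W and 0.23 with T354M, against 0.00, 0.02 and 0.02 over all genes tested. All libraries of the vector lay above all enhancer-null control libraries in 18 members for GATA2, 14 for R307W and 11 for T354M, and below them in 1 for T354M, while 28.3%, 27.1% and 24.9% of all genes did not overlap. These 3 comparisons and that of enhancer loss share the 4 enhancer-null control libraries, so their values for a gene are not independent of each other and are given side by side below. With 1 library left out in turn, 17 of the 19 GATA2 calls and 9 of the 10 R307W calls always held (the exceptions were Hsd17b7 and Acly for GATA2 and Stard4 for R307W), but only those of Fdps and Cyp51 did among the 10 T354M calls. The T354M count was 2 without T354M replicate 4, 3 without T354M replicate 1, 4 without enhancer-null control replicate 4 and 6 without enhancer-null control replicate 3. In these fits 8.68%, 10.9%, 10.8% and 12.2% of all genes were called.

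**Figure D3:**
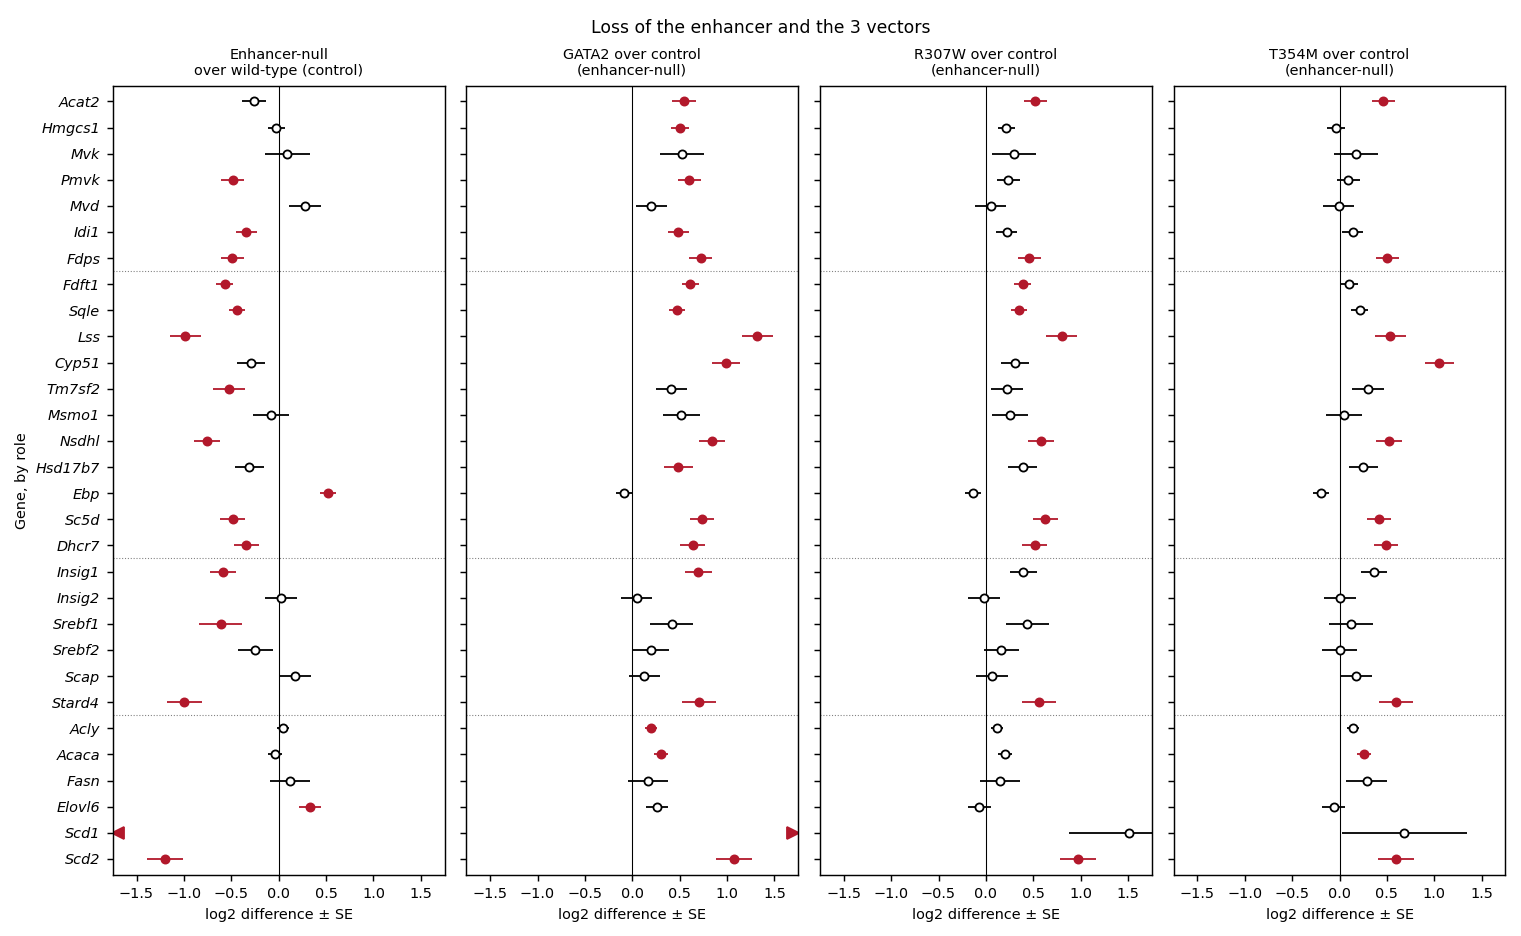
Log2 differences of the 30 members (rows, by role) in enhancer-null controls against wild-type cells and in enhancer-null cells with GATA2, R307W or T354M against the enhancer-null controls (1 panel each), with standard errors as bars, filled points for members called at an adjusted p under 0.05 and triangles for values beyond the axis. In the GATA2 panel 19 members are called and all lie to the right of 0, and in the panel of enhancer loss 15 of 17 called members lie to its left.

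The mevalonate steps turn acetyl-CoA into farnesyl diphosphate, the last common precursor of sterols and of the lipids that anchor small GTPases. Hmgcs1, whose enzyme makes HMG-CoA, had 147, 136, 122 and 137 CPM in GATA2 libraries, 116, 101, 109 and 118 CPM in R307W libraries, 90.4, 89.5, 98.9 and 94.0 CPM in T354M libraries, 90.9, 95.3, 104 and 91.9 CPM in enhancer-null controls, and 109, 106, 97.3 and 77.2 CPM in wild-type libraries. On CPM all GATA2 libraries were above all libraries of the other 4 groups, and the T354M, enhancer-null control and wild-type libraries overlapped. On TPM R307W replicate 1 (40.08 TPM) was above GATA2 replicates 3 and 4 (35.91 and 35.22 TPM). The log2 difference from enhancer-null controls was 0.50 (SE 0.09, adjusted p = 0.000897) with GATA2, and 0.21 with R307W (SE 0.09, adjusted p = 0.116) and -0.04 with T354M (SE 0.09, adjusted p = 0.838), neither of which passed the test. Enhancer-null controls and wild-type cells differed by -0.02 (SE 0.09, adjusted p = 0.855) on the same scale.

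Fdps encodes farnesyl diphosphate synthase, the enzyme at the branch point to sterols. It had 205, 205, 166 and 171 CPM in GATA2 libraries, 170.3, 155, 139 and 158 CPM in R307W libraries, 175, 128, 162 and 178 CPM in T354M libraries, 126, 113, 108 and 107 CPM in enhancer-null controls, and 150.4, 164, 191 and 130.3 CPM in wild-type libraries. On CPM the enhancer-null controls lay below every library of the other groups. On TPM enhancer-null control replicate 1 (101.52 TPM) was above wild-type replicate 4 (99.07 TPM). Fdps fell by 0.49 on the log2 scale with enhancer loss (SE 0.12, adjusted p = 0.0026) and rose by 0.72 with GATA2 (SE 0.12, adjusted p = 0.000388), 0.46 with R307W (SE 0.12, adjusted p = 0.0139) and 0.50 with T354M (SE 0.12, adjusted p = 0.00722). Its counts were fractional in all 20 libraries, so some of its reads also fit another gene, and 26.7% of its exon bases overlap Gm43738 on the same strand.

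Acat2, the thiolase of the first step, had 54.7, 51.7, 49.3 and 50.2 CPM in GATA2 libraries, 53.9, 45.4, 45.8 and 57.5 CPM in R307W libraries, 52.2, 38.9, 49.6 and 53.7 CPM in T354M libraries, 40.4, 34.4, 35.5 and 30.9 CPM in enhancer-null controls, and 45.4, 40.0, 50.04 and 33.3 CPM in wild-type libraries. GATA2 and R307W libraries lay above the enhancer-null controls, whereas T354M replicate 2 was within their range. Acat2 rose by 0.54 with GATA2 (SE 0.12, adjusted p = 0.00504), 0.52 with R307W (SE 0.12, adjusted p = 0.00784) and 0.46 with T354M (SE 0.12, adjusted p = 0.0156) on the log2 scale, and its difference of -0.26 with enhancer loss did not pass (SE 0.12, adjusted p = 0.104). Pmvk, a kinase of the pathway, and Idi1, the isopentenyl diphosphate isomerase, fell with enhancer loss by 0.48 and 0.34 and rose with GATA2 by 0.60 and 0.48 on the log2 scale. Neither was called with R307W (0.24 for Pmvk and 0.22 for Idi1) or T354M (0.09 for Pmvk and 0.14 for Idi1). Counts of Acat2 and Idi1 were also fractional in all 20 libraries. Mvk, the mevalonate kinase, and Mvd, the decarboxylase, were called in none of these 4 comparisons without a replicate block. In GATA2 against enhancer-null controls with the replicate number as a block, Mvk rose by 0.50 (adjusted p = 0.0421) in the 16 enhancer-null libraries, and its 0.54 in all 20 libraries was not called (adjusted p = 0.0887).

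The squalene and sterol steps join farnesyl units into squalene, close the ring to lanosterol and trim it to cholesterol. Lss, lanosterol synthase, makes the first sterol. It had 63.7, 57.9, 42.6 and 65.3 CPM in GATA2 libraries, 41.2, 35.7, 33.4 and 49.7 CPM in R307W libraries, 37.9, 25.4, 29.5 and 40.5 CPM in T354M libraries, 24.3, 21.5, 24.5 and 21.8 CPM in enhancer-null controls, and 51.1, 36.4, 50.9 and 43.6 CPM in wild-type libraries. On CPM the enhancer-null controls were the lowest of all 20 libraries, and each vector's libraries lay above them. On TPM this did not hold. Enhancer-null control replicate 1 (10.34 TPM) lay above R307W replicate 3 (8.66 TPM), T354M replicate 3 (8.44 TPM) and wild-type replicate 2 (9.44 TPM). Lss was 1.98-fold lower in enhancer-null controls than in wild-type cells (log2 difference -0.98, SE 0.16, adjusted p = 8.41e-05). Relative to enhancer-null controls it was 2.49-fold higher with GATA2 (log2 1.32, SE 0.17, adjusted p = 2.55e-05), 1.74-fold higher with R307W (log2 0.80, SE 0.16, adjusted p = 0.00278) and 1.45-fold higher with T354M (log2 0.53, SE 0.16, adjusted p = 0.0312). The T354M call was lost in 6 of 8 fits with 1 library left out, with adjusted p-values up to 0.141.

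Cyp51 encodes the demethylase that acts on lanosterol and showed another order of the groups. It had 138, 140.3, 119 and 125 CPM in GATA2 libraries, 87.0, 76.4, 75.8 and 86.7 CPM in R307W libraries, 149.8, 96.7, 126 and 173 CPM in T354M libraries, 65.6, 64.5, 71.3 and 61.5 CPM in enhancer-null controls, and 78.2, 92.6, 90.9 and 59.3 CPM in wild-type libraries. GATA2 and T354M libraries were above every R307W, enhancer-null control and wild-type library. The log2 difference from enhancer-null controls was 0.99 with GATA2 (SE 0.15, adjusted p = 0.000137), 0.31 with R307W (SE 0.15, adjusted p = 0.153, not called) and 1.05 with T354M (SE 0.15, adjusted p = 7.68e-05). With enhancer loss it was -0.29 (SE 0.15, adjusted p = 0.122, not called).

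Nsdhl encodes a dehydrogenase that helps remove methyl groups from the sterol ring. Its levels were 24.6, 22.9, 18.5 and 24.2 CPM in GATA2 libraries, 23.6, 16.3, 15.2 and 20.4 CPM in R307W libraries, 17.6, 16.8, 16.8 and 21.2 CPM in T354M libraries, 12.5, 14.2, 11.4 and 12.4 CPM in enhancer-null controls, and 21.3, 22.0, 23.4 and 18.3 CPM in wild-type libraries. The enhancer-null controls lay below all other libraries. Nsdhl fell 1.69-fold with enhancer loss (log2 -0.75, SE 0.14, adjusted p = 0.000186) and was 1.79-fold higher with GATA2 (log2 0.84, SE 0.14, adjusted p = 0.000311), 1.498-fold with R307W (log2 0.58, SE 0.14, adjusted p = 0.00688) and 1.44-fold with T354M (log2 0.52, SE 0.14, adjusted p = 0.0131) than in enhancer-null controls. Without T354M replicate 4 the last adjusted p was 0.0728.

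Sc5d, a sterol desaturase near the end of the pathway, had 58.4, 57.1, 42.7 and 52.1 CPM in GATA2 libraries, 54.4, 44.8, 41.3 and 54.5 CPM in R307W libraries, 43.3, 37.6, 40.5 and 46.6 CPM in T354M libraries, 32.9, 35.1, 29.7 and 28.3 CPM in enhancer-null controls, and 46.2, 52.5, 42.8 and 35.3 CPM in wild-type libraries. On CPM the enhancer-null controls were again below all others, though wild-type replicate 4 was close to the highest of them. On TPM wild-type replicate 4 (13.25 TPM) was below enhancer-null control replicates 1 and 2 (13.93 and 15.64 TPM). Sc5d fell by 0.49 with enhancer loss (SE 0.13, adjusted p = 0.00457) and rose by 0.74 with GATA2 (SE 0.13, adjusted p = 0.000566), 0.63 with R307W (SE 0.13, adjusted p = 0.00257) and 0.41 with T354M (SE 0.13, adjusted p = 0.0323) on the log2 scale. The T354M call was lost in 6 of 8 fits with 1 library left out, with adjusted p up to 0.132.

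Of the other sterol genes, Fdft1 (squalene synthase) and Sqle (squalene epoxidase) fell by 0.57 and 0.44 on the log2 scale with enhancer loss and rose with GATA2 by 0.61 and 0.47 and with R307W by 0.39 and 0.35. With T354M they were not called, at 0.10 for Fdft1 and 0.21 for Sqle. Dhcr7, the reductase of the last step, rose with all 3 vectors, by 0.64 with GATA2, 0.51 with R307W and 0.49 with T354M. Its fall of 0.34 with enhancer loss was lost in 7 of 8 fits with 1 library left out. Ebp, a sterol isomerase, went the other way: it had 39.9, 39.3, 36.5 and 40.0 CPM in enhancer-null controls against 28.7, 30.2, 28.4 and 21.5 CPM in wild-type libraries, with no overlap, a rise of 0.52 (SE 0.09, adjusted p = 7.68e-05). With a vector Ebp was not called without a replicate block, with log2 differences of -0.09 for GATA2, -0.14 for R307W and -0.19 for T354M. Tm7sf2, a sterol reductase, fell by 0.52 with enhancer loss, and Hsd17b7, a ketoreductase, rose by 0.48 with GATA2. Msmo1, the methylsterol monooxygenase, was not called in these comparisons. Same-numbered GATA2 and enhancer-null control libraries deviated together only weakly, with correlations of 0.124 to 0.3. With the replicate number as a block in a fit of all 20 libraries Msmo1 (0.51, adjusted p = 0.0058), Tm7sf2 (0.43, adjusted p = 0.0195) and Elovl6 (0.26, adjusted p = 0.0346) also rose with GATA2. In all 22 members were called with the block in 20 libraries and 24 with the block in the 16 enhancer-null libraries, which added Srebf1 and Mvk, each higher with GATA2. Calls among all genes rose too, from 19.2% without the block to 25.8% in 20 libraries and 34% in 16. In the same blocked fits R307W against enhancer-null controls had 13 and 18 calls (25.9% and 34.5% of all genes), against 10 without the block. T354M had 11 and 12 (24% and 32.2% of all genes), also against 10. In the fit of 16 libraries 1 of the R307W calls and 1 of the T354M calls were lower. For these comparisons the numbers were not taken to pair the libraries. The strand of counting is not given in the sources used here, and 18.3% of the exon bases of Fdft1 overlap Ctsb on the opposite strand.

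**Figure D4:**
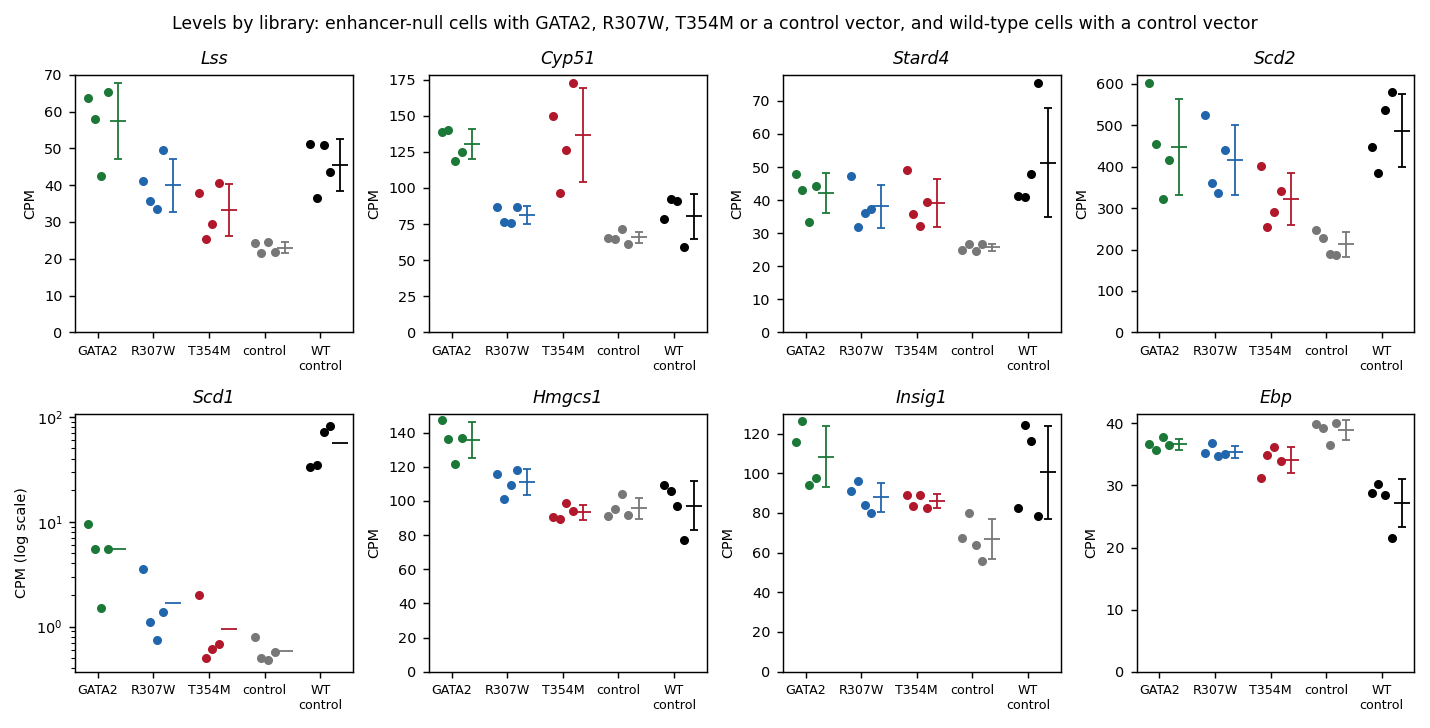
TMM-scaled CPM of Lss, Cyp51, Stard4, Scd2, Scd1, Hmgcs1, Insig1 and Ebp in each library (points) of the 5 groups, where control is the control vector in enhancer-null cells, with the group mean and SD (n = 4). Scd1 is on a log axis without the SD; enhancer-null controls sit lowest for Lss, Stard4 and Scd2 and highest for Ebp, GATA2 and T354M libraries sit above the other groups for Cyp51, and Scd1 is at 33.6 to 82.7 CPM in wild-type libraries, above all other libraries.

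Among the regulators, Srebf1 and Srebf2 encode the SREBP precursors. Srebf1 had 41.3, 48.9, 35.9 and 55.1 CPM in GATA2 libraries, 36.2, 52.0, 37.5 and 57.6 CPM in R307W libraries, 37.2, 32.9, 34.2 and 43.1 CPM in T354M libraries, 32.5, 29.4, 29.97 and 43.7 CPM in enhancer-null controls, and 57.7, 30.3, 42.5 and 76.8 CPM in wild-type libraries. All 5 groups overlapped. Enhancer loss gave a log2 difference of -0.61 (SE 0.23, adjusted p = 0.0361), and without wild-type replicate 4 it was -0.33 (adjusted p = 0.238). Srebf1 was not called with any vector in the fit without a replicate block, at 0.42 for GATA2 (SE 0.23, adjusted p = 0.226), 0.44 for R307W and 0.12 for T354M. With the block in the 16 enhancer-null libraries the GATA2 difference was 0.40 with an adjusted p of 0.00826.

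Srebf2 had 46.0, 57.3, 43.7 and 54.6 CPM in GATA2 libraries, 47.4, 50.1, 46.7 and 52.5 CPM in R307W libraries, 46.2, 46.4, 39.4 and 43.8 CPM in T354M libraries, 45.9, 37.9, 39.4 and 52.6 CPM in enhancer-null controls, and 55.0, 37.3, 36.01 and 80.1 CPM in wild-type libraries. With all 20 libraries it was called in none of the 8 comparisons, with log2 differences between -0.25 and 0.20. Scap, whose product escorts the SREBPs, was also never called. Wild-type replicates 1 and 4 were higher than replicates 2 and 3 for Srebf1, Srebf2, Scap, Mvd and Fasn (236 and 225 against 104 and 138 CPM), all GC-rich transcripts. Pmvk and Mvk, at 57.0% and 56.3% GC, did not show this order. Wild-type replicates 1 to 4 had 18.51, 15.72, 20.99 and 18 TPM of Pmvk and 6.22, 2.85, 4.4 and 3.79 TPM of Mvk. The order above is on CPM. On TPM Srebf1 did not show it either, at 28.74, 20.83, 30.64 and 32.44 TPM in wild-type replicates 1 to 4. In the same libraries the slope of log2 level on transcript GC content was 0.211 and 0.0913 per 10 percentage points in replicates 1 and 4, and -0.193 and -0.101 in replicates 2 and 3. The mitochondrial ribosomal RNA mt-Rnr2 took 24.64% and 23.65% of counts in wild-type replicates 2 and 3, against 17.87% to 19.97% in the other 18 libraries. Without these 2 libraries, in a fit run after seeing the data, enhancer loss had 14 calls (12 lower, 2 higher), 13 of them among the 17. Srebf2 was then called (-0.60, adjusted p = 0.00438), and Idi1 (-0.18, adjusted p = 0.281), Fdps (-0.29, adjusted p = 0.0862), Sc5d (-0.35, adjusted p = 0.0725) and Insig1 (-0.25, adjusted p = 0.133) were not. The part of the mt-Rnr2 share in these results was not tested. The part of the GC slope was not tested beyond an offset for GC content, with which the members called in enhancer loss numbered 17 as without it.

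Insig1 and Insig2 encode the retention proteins, and Insig1 is itself a target of SREBP. Insig1 had 116, 126, 94.3 and 97.4 CPM in GATA2 libraries, 91.3, 96.2, 83.8 and 80.1 CPM in R307W libraries, 89.1, 83.6, 89.0 and 82.4 CPM in T354M libraries, 67.6, 80.1, 63.7 and 55.9 CPM in enhancer-null controls, and 82.6, 125, 116 and 78.5 CPM in wild-type libraries. Libraries of GATA2 and T354M lay above the enhancer-null controls, R307W replicate 4 was level with the highest of them at this rounding, and wild-type replicate 4 was within their range. On TPM T354M replicate 4 (34.24 TPM) lay below enhancer-null control replicate 2 (36.99 TPM). Insig1 fell by 0.59 with enhancer loss (SE 0.14, adjusted p = 0.00211; not called without wild-type replicates 2 and 3, as given above) and rose by 0.70 with GATA2 (SE 0.14, adjusted p = 0.00192) on the log2 scale. With R307W (0.39, SE 0.14, adjusted p = 0.0586) and T354M (0.36, SE 0.14, adjusted p = 0.0804) it was not called.

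Insig2 was low everywhere, with 7.84, 5.90, 5.88 and 5.96 CPM in GATA2 libraries, 7.56, 5.44, 5.90 and 5.53 CPM in R307W libraries, 7.19, 6.14, 5.26 and 6.28 CPM in T354M libraries, 5.603, 6.45, 5.59 and 7.14 CPM in enhancer-null controls, and 4.83, 6.58, 5.12 and 7.86 CPM in wild-type libraries. All groups overlapped and no comparison was called. Its log2 differences lay between -0.07 and 0.07 (SE 0.17 each).

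Stard4, a carrier that moves sterol between membranes, was the regulator or carrier with the largest change in enhancer loss. It had 47.7, 43.0, 33.5 and 44.1 CPM in GATA2 libraries, 47.2, 31.8, 36.1 and 37.4 CPM in R307W libraries, 49.1, 35.9, 32.0 and 39.5 CPM in T354M libraries, 25.0, 26.6, 24.7 and 26.8 CPM in enhancer-null controls, and 41.1, 40.9, 47.8 and 75.4 CPM in wild-type libraries. Enhancer-null controls lay below all other libraries. Stard4 was 1.99-fold lower with enhancer loss (log2 -0.99, SE 0.18, adjusted p = 0.000184) and rose by 0.71 with GATA2 (SE 0.18, adjusted p = 0.00998), 0.56 with R307W (SE 0.18, adjusted p = 0.0363) and 0.60 with T354M (SE 0.18, adjusted p = 0.0273). Leaving out 1 library ended the R307W call in 6 of 8 fits, with adjusted p up to 0.119, and the T354M call in 5 of 8, with adjusted p up to 0.105.

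In fatty acid synthesis the 2 stearoyl-CoA desaturase genes, whose enzymes place the first double bond in a saturated fatty acid, changed most. Scd2 had 601, 454, 323 and 416 CPM in GATA2 libraries, 526, 362, 337 and 440.0 CPM in R307W libraries, 401, 255, 290.1 and 342 CPM in T354M libraries, 248, 228, 188 and 187 CPM in enhancer-null controls, and 448, 385, 536 and 579.8 CPM in wild-type libraries. The enhancer-null controls were below every other library. Scd2 was 2.29-fold lower with enhancer loss (log2 -1.20, SE 0.19, adjusted p = 5.14e-05), and relative to enhancer-null controls 2.11-fold higher with GATA2 (log2 1.08, SE 0.19, adjusted p = 0.000662), 1.96-fold with R307W (log2 0.97, SE 0.19, adjusted p = 0.00194) and 1.51-fold with T354M (log2 0.60, SE 0.19, adjusted p = 0.0356). The T354M call was lost in 5 of 8 fits with 1 library left out, with adjusted p up to 0.126.

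Scd1 had 9.60, 5.44, 1.499 and 5.52 CPM in GATA2 libraries, 3.53, 1.12, 0.743 and 1.39 CPM in R307W libraries, 1.99, 0.502, 0.613 and 0.677 CPM in T354M libraries, 0.790, 0.503, 0.481 and 0.568 CPM in enhancer-null controls, and 33.6, 34.8, 72.2 and 82.7 CPM in wild-type libraries. Wild-type libraries were above all others, and the T354M and enhancer-null control libraries overlapped. Enhancer-null controls were 94.1-fold lower than wild-type cells (log2 -6.56, SE 0.63, adjusted p = 1.56e-07). With GATA2 the level was 9.31-fold that of enhancer-null controls (log2 3.22, SE 0.59, adjusted p = 0.000952), and the differences of 1.51 with R307W (SE 0.63, adjusted p = 0.104) and 0.68 with T354M (SE 0.66, adjusted p = 0.533) did not pass. At this low level the size depends on the scale: on log2(TPM + 1) the difference was -3.26 with enhancer loss and 0.84 with GATA2. Scd1 and Scd2 are close paralogues with fractional counts in all 20 libraries, so reads may have been split between them.

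Scd1 is also a gene of hepatocytes, and fetal liver holds such cells. Of 10 hepatocyte markers 0 were called by edgeR in any of the 8 comparisons, and at an unadjusted p under 0.05 there were 0 in 7 of them and 4 in GATA2 against wild-type cells, all lower. All 10 nevertheless had negative log2 differences with enhancer loss, with a median of -0.80 and a range from -1.10 to -0.29, and in GATA2 against wild-type cells, with a median of -1.32 and a range from -1.64 to -0.98. Their summed level ran from 162.2 to 894.7 TPM in GATA2 libraries, 370.5 to 1072.6 TPM in enhancer-null controls and 438.6 to 1672.7 TPM in wild-type libraries. Alb, the albumin gene, overlapped between enhancer-null controls (299, 131, 200.5 and 69.6 CPM) and wild-type libraries (534, 304, 125 and 196 CPM). The part of hepatocytes in the Scd1 result was not tested.

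Of the other fatty acid genes, Elovl6, an elongase, rose by 0.33 with enhancer loss (SE 0.12, adjusted p = 0.0301), with overlapping libraries. Acaca, whose enzyme makes malonyl-CoA, rose by 0.30 with GATA2 and 0.26 with T354M, and Acly, which makes acetyl-CoA from citrate, rose by 0.20 with GATA2. Fasn, the fatty acid synthase, was called in none of the 8 comparisons.

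How far the variants differed from GATA2 was tested directly. Mean Gata2 was 182.1% of the wild-type mean with GATA2, 123.6% with R307W and 117.4% with T354M, with overlapping libraries. The part of this difference in the comparisons of the variants with GATA2 was not tested. T354M cells had lower levels than GATA2 cells of 5 members, Scd1, Lss, Hmgcs1, Pmvk and Fdft1, and higher levels of 0 (also 0 at an unadjusted p under 0.05 and 0 by DESeq2), where 10% of all genes changed, 6.14% lower and 3.86% higher. The median over the members was -0.25, against 0.02 over all genes. Lss was 1.72-fold lower with T354M than with GATA2 (log2 -0.78, SE 0.16, adjusted p = 0.0034), Hmgcs1 1.45-fold (log2 -0.54, SE 0.09, adjusted p = 0.000669), and Pmvk (log2 -0.51, SE 0.12, adjusted p = 0.00803) and Fdft1 (log2 -0.51, SE 0.09, adjusted p = 0.000888) 1.42-fold each. T354M and GATA2 libraries did not overlap for these 4 genes, nor for 3 other members, with all 7 lower and 14.8% of all genes not overlapping. Scd1 was 5.79-fold lower with T354M (log2 -2.53, SE 0.55, adjusted p = 0.00494), although T354M replicate 1, at 1.99 CPM, was above GATA2 replicate 3, at 1.499 CPM, and on log2(TPM + 1) its difference of -0.75 was not called (limma, adjusted p = 0.0927). All 5 calls held with any 1 library left out, and the count was 8 without GATA2 replicate 3. Same-numbered libraries of these groups deviated together, although T354M replicate 2 deviated most like GATA2 replicate 3. With the replicate number as a block 10 members were called in a fit of all 20 libraries and 14 in a fit of the 16 enhancer-null libraries, each of them lower with T354M. Calls among all genes rose too, from 10% without the block to 13.2% and 18.7%. The fit of 20 libraries added Idi1, Sqle, Msmo1, Elovl6 and Scd2, and that of 16 also added Nsdhl, Sc5d, Insig1 and Srebf1. Cell type markers moved in this comparison too: 5 of 8 markers of mast cells and basophils and 5 of 10 erythroid markers were lower and 6 of 8 neutrophil markers higher with T354M than with GATA2, and their part in the result was not tested. The mast cell and basophil list, here and below, includes Gata2 itself.

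Pmvk had 16.3, 14.47, 17.8 and 18.6 CPM in T354M libraries against 26.1, 25.5, 19.2 and 24.7 CPM in GATA2 libraries. Fdft1 had 31.3, 30.3, 29.3 and 27.9 CPM in T354M libraries against 47.7, 42.4, 35.8 and 43.3 CPM in GATA2 libraries. In both genes the lowest GATA2 library was replicate 3, and it was still above the highest T354M library.

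R307W cells differed from GATA2 cells in 1 member, Cyp51, where 1.73% of all genes changed, 0.587% higher and 1.14% lower. Cyp51 was 1.60-fold lower with R307W (log2 -0.68, SE 0.15, adjusted p = 0.0182). On CPM all its R307W libraries lay below all GATA2 libraries, as they did for Hmgcs1 and Idi1 but for no other member, while 6.08% of all genes did not overlap. On TPM Hmgcs1 and Idi1 overlapped, with R307W replicate 1 (40.08 and 27.24 TPM) above GATA2 replicate 4 (35.22 and 25.7 TPM). The Cyp51 call was lost without GATA2 replicate 1 (adjusted p = 0.0573), R307W replicate 2 (adjusted p = 0.0635) or R307W replicate 3 (adjusted p = 0.0687), and 4 members were called without GATA2 replicate 3. Members had a median of -0.15, against 0.01 over all genes, and all but Srebf1 had a negative value, from -1.71 for Scd1 to -0.01 for Fasn. Under the replicate block 2 members, Cyp51 and Lss (log2 -0.52, adjusted p = 0.0457), were called with all 20 libraries and 8 with the 16 enhancer-null libraries, in each case lower with R307W. The shares of all genes called were then 2.78% and 4.12%. Of the cell type markers, 5 of 8 for mast cells and basophils were lower and 2 of 8 for neutrophils higher with R307W than with GATA2.

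Between the variants, R307W cells had lower Cyp51 than T354M cells, 1.67-fold (log2 -0.74, SE 0.15, adjusted p = 0.0057), with no overlap, and no other member was called, where 3.49% of all genes were, 2.3% higher and 1.19% lower. The median over the members was 0.06, against -0.01 over all genes. Fdft1 (0.28, SE 0.09, adjusted p = 0.105) and Hmgcs1 (0.25, SE 0.09, adjusted p = 0.192) had every R307W library above every T354M library but did not pass. With Srebf2 and Cyp51 these made 4 members without overlap on CPM, 3 higher and 1 lower, while 8.14% of all genes did not overlap. On TPM the 3 higher members overlapped. R307W replicate 2 was at 12 TPM for Fdft1, 27.42 for Hmgcs1 and 8.96 for Srebf2. T354M replicate 1 was at 13.71 TPM for Fdft1, and T354M replicate 2 was at 29.71 for Hmgcs1 and 9.82 for Srebf2. Without R307W replicate 3 the count of calls was 2. With the replicate block it was 1 in all 20 libraries, and 4 in the 16 enhancer-null libraries, where Hmgcs1 (0.26), Fdft1 (0.29) and Scd2 (0.38) were higher with R307W. The shares of all genes called were then 5.61% and 8.53%. The T354M libraries spread over a wide range for Cyp51, with replicate 2 at 96.7 CPM and replicate 4 at 173 CPM. In R307W against T354M cells 5 of 10 erythroid markers were higher and 2 of 8 neutrophil markers lower, and the part of these markers was not tested.

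**Figure D5:**
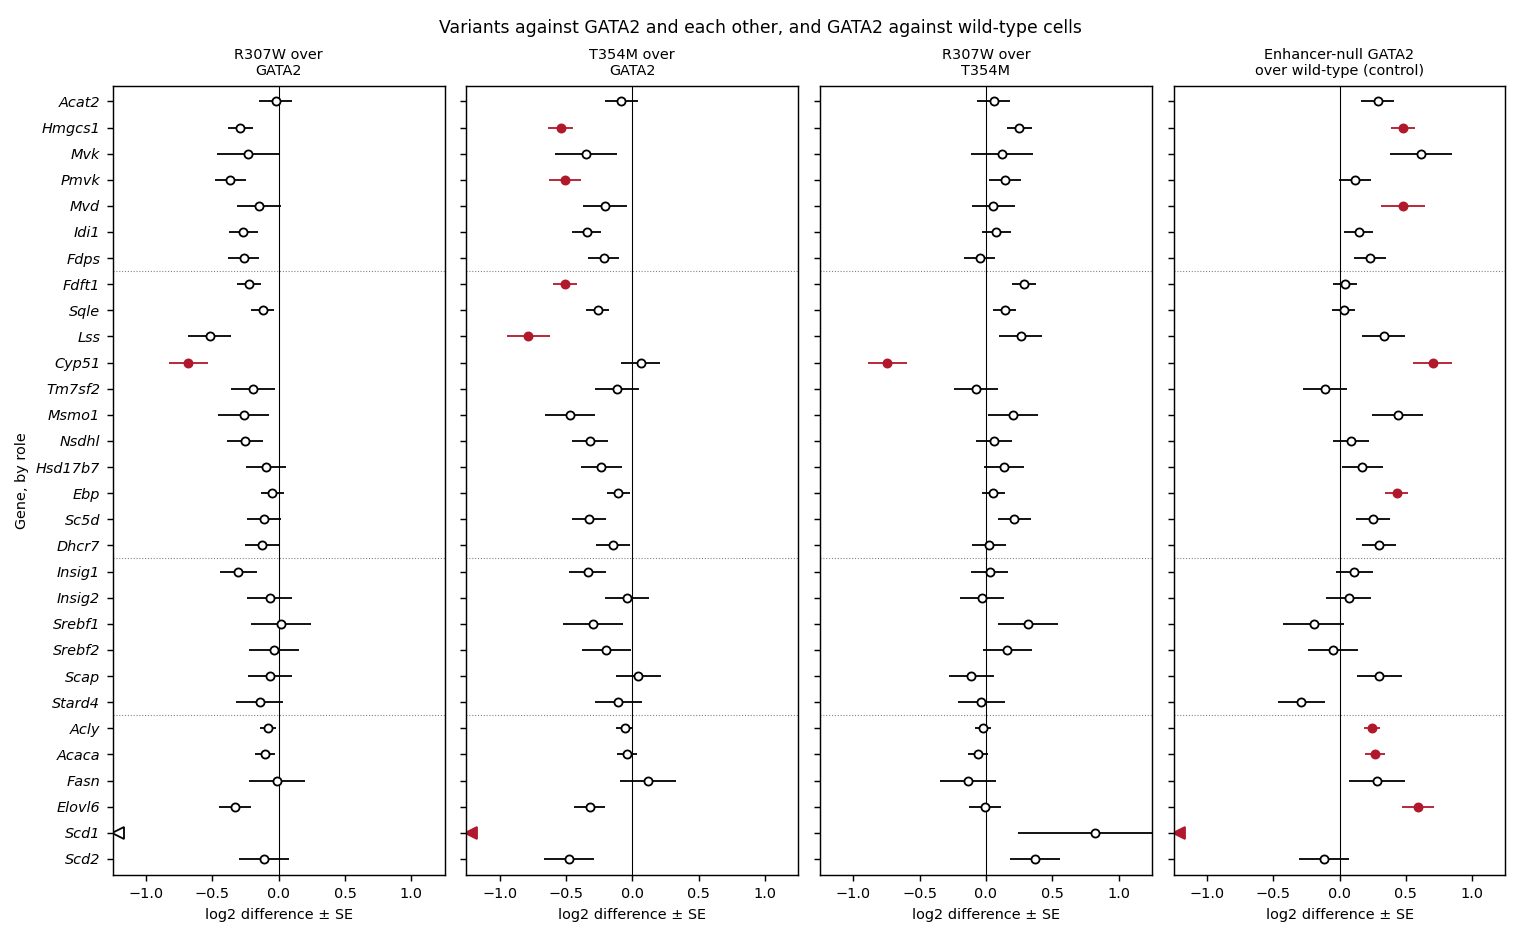
Log2 differences of the 30 members (rows, by role) for R307W against GATA2, T354M against GATA2, R307W against T354M, and enhancer-null GATA2 cells over wild-type cells (1 panel each), with standard errors as bars, filled points for members called at an adjusted p under 0.05 and triangles for values beyond the axis. Cyp51 is the 1 call in the panels of R307W against GATA2 and against T354M, and T354M against GATA2 has 5 calls, all to the left of 0.

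Enhancer-null cells with GATA2 were also set against wild-type cells with the control vector, which sets the levels of GATA2 cells beside those of wild-type cells. Of the 30 members 7 were higher and 1 lower, where 30.7% of all genes changed, 14.7% higher and 16% lower. Of these 8, Hmgcs1, Mvd, Cyp51, Acly and Acaca were not called with enhancer loss. Without wild-type replicates 2 and 3 the count was 10 (8 higher, 2 lower): Fdps (0.42, adjusted p = 0.0252), Insig1 (0.44, adjusted p = 0.0189) and Srebf2 (-0.41, adjusted p = 0.0458) were added and Mvd (0.23, adjusted p = 0.296) was lost. Members had a median of 0.24, against 0.00 over all genes. Cyp51 was 1.63-fold higher in GATA2 cells (log2 0.70, SE 0.15, adjusted p = 0.00119), Elovl6 1.51-fold (log2 0.59, SE 0.12, adjusted p = 0.00084), and Hmgcs1 1.39-fold (log2 0.48, SE 0.09, adjusted p = 0.00058), each without overlap. In all 8 members did not overlap, 7 higher and 1 lower, where 25.3% of all genes did not. Ebp (0.43), Acaca (0.26) and Acly (0.25) were higher without overlap, and Mvd (0.48, SE 0.17, adjusted p = 0.0347) was higher with overlap and lost its call in 4 of 8 fits with 1 library left out. Scd1 was 10.1-fold lower in GATA2 cells than in wild-type cells (log2 -3.34, SE 0.51, adjusted p = 5.36e-05). Scd2 (-0.12, SE 0.19, adjusted p = 0.674), Nsdhl (0.09, SE 0.13, adjusted p = 0.675) and Fdft1 (0.04, SE 0.09, adjusted p = 0.751) were not called.

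Other genes of these pathways, listed by general knowledge, gave the following counts. The shares of all genes called were 43.3% with enhancer loss, 19.2% with GATA2, 17.5% with R307W and 17.4% with T354M. Of 12 further sterol genes, 3 fell and 2 rose with enhancer loss, with a median log2 difference of -0.02, which is near the share of all genes. With GATA2 4 rose, with R307W 2 and with T354M 3, and none fell. With enhancer loss Cyb5r3, a reductase that feeds electrons to sterol enzymes, fell by 0.89 (SE 0.12, adjusted p = 8.34e-06).

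Of 15 further fatty acid genes tested, 8 fell and 3 rose with enhancer loss, 6 rose with GATA2, 5 with R307W and 4 with T354M, and none fell with a vector. Acss2, which makes acetyl-CoA from acetate, differed by more than any member except Scd1 with enhancer loss, and by more than any member with each of the 3 vectors. It had 81.3, 73.3, 43.0 and 116 CPM in GATA2 libraries, 67.7, 46.4, 40.0 and 121 CPM in R307W libraries, 26.4, 11.9, 12.7 and 32.8 CPM in T354M libraries, 7.41, 7.46, 7.602 and 7.78 CPM in enhancer-null controls, and 41.0, 46.7, 58.5 and 42.9 CPM in wild-type libraries. GATA2 and R307W libraries were all above all T354M libraries, which in turn were above all enhancer-null controls. Acss2 was 6.24-fold lower with enhancer loss (log2 -2.64, SE 0.38, adjusted p = 1.5e-05), and 10.4-fold higher with GATA2 (adjusted p = 1.05e-05), 9.11-fold with R307W (adjusted p = 1.46e-05) and 2.77-fold with T354M (log2 1.47, SE 0.37, adjusted p = 0.00969) than in enhancer-null controls. T354M cells had 3.74-fold less than GATA2 cells (log2 -1.90, SE 0.36, adjusted p = 0.00146), and R307W cells 3.28-fold more than T354M cells (log2 1.71, SE 0.36, adjusted p = 0.00802).

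Fads2, a desaturase of polyunsaturated fatty acids, fell by 1.53 with enhancer loss (SE 0.21, adjusted p = 1.29e-05) and rose by 1.61 with GATA2 (SE 0.21, adjusted p = 4.35e-05), 0.94 with R307W (SE 0.21, adjusted p = 0.00524) and 0.92 with T354M (SE 0.21, adjusted p = 0.00587) on the log2 scale. Lpin1, a phosphatidate phosphatase of glycerolipid synthesis, was 4.08-fold lower with enhancer loss (adjusted p = 7.89e-07), 2.91-fold lower with T354M than with GATA2 (adjusted p = 0.00014) and 2.23-fold higher with R307W than with T354M (adjusted p = 0.00444). Elovl5, an elongase of polyunsaturated fatty acids, rose by 0.51 with T354M (SE 0.10, adjusted p = 0.00246) and was lower with R307W than with T354M (-0.42, SE 0.10, adjusted p = 0.0282).

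Genes of sterol efflux and storage and of the LXR receptors, which sense excess sterol, had counts of the other sign. Of 13 tested, 9 rose and 1 fell with enhancer loss (median 1.11), and 7 fell and 1 rose with GATA2 (median -0.65), 5 fell and 1 rose with R307W (median -0.46), and 6 fell and 1 rose with T354M (median -0.52). Npc2, a lysosomal sterol carrier, rose 2.28-fold (log2 1.19, SE 0.10, adjusted p = 4.31e-08) and Abcg1, a sterol exporter, rose 2.52-fold (log2 1.33, SE 0.16, adjusted p = 1.8e-06) with enhancer loss. Lipa, the lysosomal acid lipase, fell by 1.04 with GATA2 (SE 0.25, adjusted p = 0.00639). Lpcat3, a phospholipid remodelling enzyme, was the 1 gene of this list to rise with a vector, by 0.67 with GATA2 (SE 0.11, adjusted p = 0.000468), 0.75 with R307W (SE 0.11, adjusted p = 0.000204) and 0.47 with T354M (SE 0.11, adjusted p = 0.00816). Several genes of this list, among them Lipa and Npc2, are abundant in macrophages. Of 13 fatty acid oxidation genes tested, 5 rose and 4 fell with enhancer loss, and 1 rose and 1 fell with GATA2. Among them Acadl, an acyl-CoA dehydrogenase, fell by 0.55 with enhancer loss (SE 0.09, adjusted p = 7.42e-05) and rose by 0.40 with GATA2 (SE 0.09, adjusted p = 0.00517).

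Cell type markers moved in the same comparisons, and in bulk RNA a change in the share of a cell type and a change of RNA per cell cannot be told apart. With enhancer loss all 10 erythroid, all 8 mast cell and basophil, all 7 eosinophil and 5 of 8 neutrophil markers fell, and all 8 monocyte, all 6 dendritic cell and all 8 interferon response genes rose. With GATA2 all 8 mast cell and basophil and all 7 eosinophil markers rose, and 6 of 8 monocyte, all 6 dendritic cell, 6 of 8 neutrophil and 6 of 8 interferon response genes fell, while 5 of 10 erythroid markers rose and 2 fell. The mast cell and basophil list includes Gata2 itself. Its enhancer was deleted and the vectors supply it, so its own fall and rise were set by the design. Summed eosinophil markers were at 2160.6 to 3859.5 TPM in GATA2 libraries, 1707.3 to 4131.6 TPM in R307W libraries, 1058.6 to 5783.8 TPM in T354M libraries, 9.9 to 19.6 TPM in enhancer-null controls and 717.3 to 1209.7 TPM in wild-type libraries. The 8 summed monocyte markers were at 82.5 to 250.3 TPM in GATA2 libraries, 87.3 to 229.9 TPM in R307W libraries, 89.8 to 300.8 TPM in T354M libraries, 359.3 to 394.6 TPM in enhancer-null controls and 68.8 to 106.3 TPM in wild-type libraries. Tpsb2, a mast cell tryptase gene, was at 0 counts in all 4 enhancer-null controls, and Fcer1a, a subunit of the IgE receptor, in 3 of them. Of 12 cell cycle genes, 7 fell with enhancer loss and 1 rose with GATA2. The part of cell composition in the differences of lipid synthesis genes, between vectors as well as against the controls, was not tested.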

How the data were processed

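Total RNA libraries were made with the NuGEN Ovation protocol, per the labels. Reads were aligned with STAR 2.5.2b and quantified per gene with RSEM 1.3.0 on mm10, per the submitters' processing notes. The authors deposited, for each library, RSEM's expected counts, TPM values and FPKM values per gene; the deposited FPKM values were not used. The annotation, the strand of counting and the treatment of multi-mapping reads are not given in the sources used here. Library groups follow the labels. The file names of the 4 GATA2 libraries carry a term that could be read as wild-type cells with GATA2, whereas the labels call them enhancer-null, and every comparison with GATA2 rests on the labels.

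Symbols were matched by gene identifier to GENCODE M21 (GRCm38), and 53274 of 53379 identifiers had one. Some genes of the related lists are counted but not reported singly here. The members and gene lists were chosen with earlier results of these data known. Expected counts were rounded and tested with edgeR 4.0.16 in R 4.3.3: filterByExpr, TMM, 1 mean per group over all 20 libraries, 15 residual degrees of freedom, the quasi-likelihood F-test, and Benjamini-Hochberg adjustment over 15835 genes with a threshold of 0.05. All p-values come from this fit unless another is named. No 2 libraries of a group were alike enough to be one library deposited again. Per-library values were given for the 6 called members of largest change at a mean of 5 CPM or more in enhancer loss and with each vector, and for Srebf1, Srebf2, Insig1 and Insig2; other per-library values were chosen after they were seen. The test was also checked on simulated data.

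The replicate numbers come from the labels. Deviations of same-numbered libraries correlated at 0.124 to 0.3 between GATA2 and enhancer-null controls, 0.219 to 0.623 between R307W and GATA2, 0.159 to 0.551 between T354M and GATA2 and 0.204 to 0.667 between R307W and T354M, so in these comparisons the numbers were taken to pair the libraries. However, replicate 2 of R307W and of T354M correlated best with GATA2 replicate 3, and R307W replicate 3 with T354M replicate 2. Blocked counts between R307W, T354M and GATA2 thus rest on an uncertain pairing. The lowest correlation between GATA2 and enhancer-null controls, 0.124, is also low. T354M against the same controls, with a lowest value of 0.0619, was not taken as paired. Blocked counts of GATA2 against enhancer-null controls are therefore uncertain too. Alternatives were DESeq2 1.42.0, limma 3.58.1 on log2(TPM + 1) and log2(TPM + 0.1), no filter, the replicate block, fewer libraries and a fold minimum; an offset for GC content, and a fit without wild-type replicates 2 and 3, were added after seeing the data.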

Additional observations from a re-analysis of the deposited data

Results flagged for a closer look

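A test for a single library far from the others of its group picked out 2 of 150 groups of 4 libraries, where chance gives about 1 in 20, or 7.5. Insig2 was at 7.84 CPM in GATA2 replicate 1, against 5.88 to 5.96 CPM in the other 3 GATA2 libraries. Scd1 was at 1.99 CPM in T354M replicate 1, against 0.502 to 0.677 CPM in the other 3 T354M libraries.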

How the results depend on the processing

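DESeq2's size factors and its Wald test kept the number of members called within 1.5 times in all 8 comparisons, and no direction of a called member reversed in any setting run. Leaving out wild-type replicates 2 and 3 gave 14 calls for enhancer loss (40.7% of all genes) and 10 for GATA2 against wild-type cells (31.2% of all genes). Without the filter on low counts, R307W against GATA2 had 2 calls in place of 1. With limma on log2(TPM + 1) or log2(TPM + 0.1), T354M against enhancer-null controls had 6 calls in place of 10 and R307W against GATA2 had 0 in place of 1. With log2(TPM + 1) and no filter, where more genes enter the adjustment, the calls were 8 for enhancer loss in place of 17, 10 for GATA2 in place of 19, 3 for R307W, 2 for T354M, and 0 in each comparison of R307W, T354M and GATA2 with each other. At an unadjusted p under 0.05 edgeR gave 10 members in R307W against GATA2, 13 in T354M against GATA2 and 3 in R307W against T354M. Fitted on the 8 libraries of a comparison alone, R307W against T354M had 0 calls and GATA2 against wild-type cells had 5 in place of 8.

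With the replicate block in all 20 libraries, R307W against GATA2 had 2 calls (2.78% of all genes) and T354M against GATA2 had 10 (13.2%). With the block in the 16 enhancer-null libraries, R307W against enhancer-null controls had 18 (17 higher, 1 lower, 34.5% of all genes). T354M against these controls had 12 (11 higher, 1 lower, 32.2%). In the same fit R307W against GATA2 had 8 (4.12%), T354M against GATA2 had 14 in place of 5 (18.7%), and R307W against T354M had 4 (8.53%). The block left the other counts within 1.5 times. In R307W and T354M against enhancer-null controls, enhancer loss, and GATA2 against wild-type cells the numbers were not taken to pair the libraries, with lowest correlations of 0.0192, 0.0619, -0.0106 and -0.0771. Without the fourth library of every group, R307W had 5 calls (9.55% of all genes) and T354M had 2 (10.6% of all genes) against enhancer-null controls. At a change of at least 2-fold, the calls were 2 for enhancer loss, 3 for GATA2, 0 for R307W, 1 for T354M, 0 for R307W against GATA2, 1 for T354M against GATA2, 0 for R307W against T354M and 1 for GATA2 against wild-type cells. In the same order 18.8%, 8.46%, 7.22%, 6.61%, 1.17%, 4.6%, 1.95% and 12.6% of all genes tested were called at this minimum. With the GC offset T354M against GATA2 had 8 calls (11.6% of all genes). With this offset and the replicate block it had 11 (14.7% of all genes) and R307W against GATA2 had 4 (3.13% of all genes). The cause of these moves was not tested.

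With 1 library left out in turn, counts ran from 13 to 16 for enhancer loss, 17 to 20 for GATA2, 9 to 10 for R307W, 2 to 11 for T354M, 0 to 4 for R307W against GATA2, 5 to 8 for T354M against GATA2, 1 to 2 for R307W against T354M and 7 to 12 for GATA2 against wild-type cells. Low counts limit Scd1, which was under 1 CPM in all enhancer-null controls.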
